A study of Rattus norvegicus with 9 samples.

Results

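Iron handling was followed through 10 genes in the lungs of fetal Sprague-Dawley rats: the transferrin gene Tf, the transferrin receptor gene Tfrc, the iron transporters Slc11a2 and Slc40a1, the ferroxidase gene Cp, the ferritin chains Fth1 and Ftl1, the iron regulatory proteins Ireb2 and Aco1, and the haem oxygenase gene Hmox1. All 10 were found by symbol among the 17465 genes of the count table, and all 10 were among the 12966 genes abundant enough to test. The set was chosen by its function together with a measured value: the difference of Tf between hypoplastic and control lungs was already known from these libraries, so that difference is described here without a test. Total RNA depleted of ribosomal RNA was sequenced from 9 lungs, each frozen and ground to powder, in 3 groups of 3. Control lungs had no treatment, hypoplastic lungs (small, underdeveloped lungs) had no treatment either, and treated lungs were hypoplastic lungs given AFSC-EVs, extracellular vesicles from amniotic fluid stem cells. The series title traces the hypoplasia to oligohydramnios, a shortage of amniotic fluid. The labels are silent on fetal age, litter, vesicle dose and route, and on any procedure that the control lungs shared with the others.

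Transferrin carries ferric iron through blood and tissue fluid and is taken into cells by the transferrin receptor. Inside the cell, Slc11a2 (DMT1) moves ferrous iron out of endosomes, ferritin stores iron in a shell of heavy and light chains, and Slc40a1 (ferroportin) exports it with the help of ferroxidases such as ceruloplasmin, the product of Cp. Aco1 (IRP1) and Ireb2 (IRP2) bind iron-responsive elements in the mRNAs of several of these genes, and Hmox1 frees iron from haem. In adults the liver is the main source of plasma transferrin.

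Upstream sequences are shown for Tf, the gene with the largest difference between hypoplastic and control lungs among the 10, and for Tfrc, whose product binds transferrin. Both are the 250 bases before the annotated start in RefSeq on build GRCr8, read 5′ to 3′ on the gene's own strand. RefSeq windows matched 7 of the 10 genes. The Tf window is chr8:112695377-112695626 (minus strand), and capitals mark AGGTCA, the half-site of nuclear receptors, and TATAA, the core of a TATA box. The Tfrc window is chr11:81690319-81690568 (minus strand), and capitals mark the cores of hypoxia response elements, ACGTG and, further upstream, the reverse complement of GCGTG.
Tf: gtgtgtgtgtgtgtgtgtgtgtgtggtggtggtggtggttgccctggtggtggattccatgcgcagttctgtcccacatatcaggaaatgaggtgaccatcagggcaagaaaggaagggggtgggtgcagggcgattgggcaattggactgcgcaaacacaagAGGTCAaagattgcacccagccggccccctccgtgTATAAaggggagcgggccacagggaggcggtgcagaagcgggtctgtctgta
Tfrc: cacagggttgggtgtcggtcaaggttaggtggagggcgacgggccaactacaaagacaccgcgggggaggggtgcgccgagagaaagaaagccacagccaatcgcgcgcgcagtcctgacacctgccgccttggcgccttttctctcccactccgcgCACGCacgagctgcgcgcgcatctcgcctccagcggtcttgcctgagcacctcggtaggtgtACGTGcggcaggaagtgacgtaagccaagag

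Each motif was searched on both strands. AGGTCA starts 87 bases and TATAA 52 bases before the Tf start, and the Tf window holds neither of the hypoxia cores. In the Tfrc window the core ACGTG starts 31 bases before the start and the reverse complement of the other core 93 bases before it, and neither Tf motif is there. The motifs are common: of 33469 windows of this length, 14.1% hold AGGTCA and 24.0% hold TATAA. The core ACGTG is in 16.6% of them and the core GCGTG in 25.9%.

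The libraries held 56922779 to 88243188 estimated counts. Ribosomal and 7SL RNA took 14.1 to 19.9% of them. Levels are given as CPM (counts divided by the TMM-scaled library size) and are compared between libraries and not between genes, since no transcript lengths were used. Differences are log2 fold changes from edgeR's quasi-likelihood fit to all 9 libraries, with an approximate standard error (SE), and p-values are adjusted over all 12966 genes by the Benjamini-Hochberg method. Called means an adjusted p under 0.05. The series' design text counts the lungs as separate, but nothing says from which litters they came, and p-values measure the spread between these libraries. In bulk RNA, fewer cells of a type and less RNA per cell cannot be told apart. Lung markers were present in all libraries: 8 alveolar type II genes summed to 2393 to 5998 CPM, 6 alveolar type I genes to 539 to 1171 CPM and 5 endothelial genes to 681 to 905 CPM. Heart muscle genes stood apart in hypoplastic libraries 1 and 2, where 6 of them summed to 241 and 113 CPM against 17.97 CPM or less elsewhere.

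In hypoplastic against control, where Tf was left out of the counts, edgeR called 0 of the other 9 genes, against 0.00771% of all genes. An unadjusted p under 0.05 was reached there by 1 of the 9 (Ftl1), or 11.1%, against 12.4% of all genes, and DESeq2 called 0 of the 9 against 1.63%. The comparisons of treated lungs share hypoplastic or control libraries with the Tf difference known beforehand. Tf was therefore left out of the counts there too and is only described. Of the other 9 genes edgeR called 0 in treated against hypoplastic (0% of all genes) and 0 in treated against control (0% of all genes). An edgeR unadjusted p under 0.05 was reached by 0 of the 9 in either, against 5.56% and 4.17% of all genes. DESeq2 called 0 of the 9 in either, against 0.14% and 0.108% of all genes. By limma voom none of the genes counted here was called. Of the 9 genes, only Ftl1 had fully separated values of the 2 groups. It was higher in hypoplastic against control, where 7.67% of all genes were higher and 9.05% lower without overlap. It was also higher in treated against control, where 4.37% of all genes were higher without overlap. In treated against hypoplastic 0 of the 9 were separated, and 4.74% of all genes were lower without overlap.

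**Figure D1:**
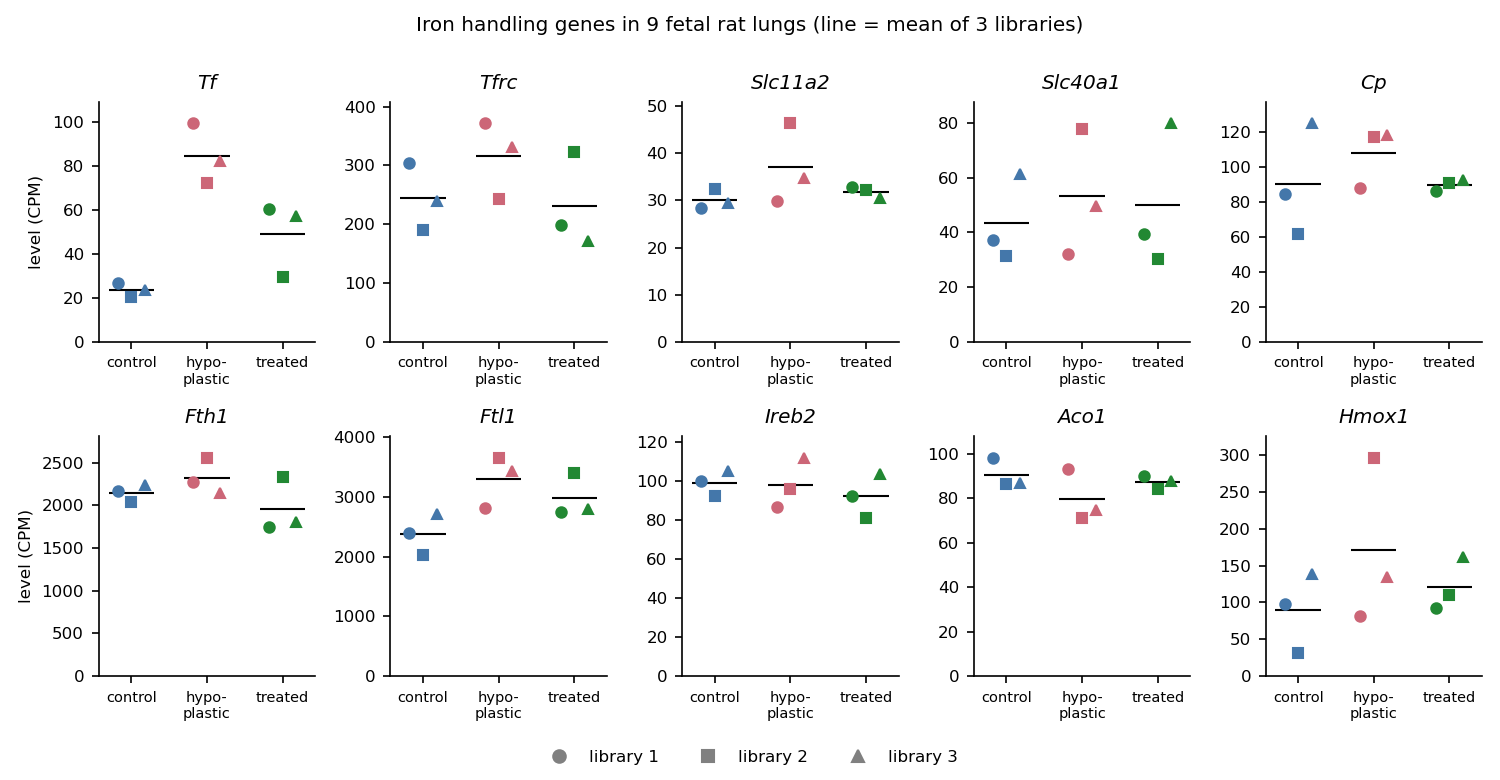
Level of each iron handling gene in every library (CPM, each panel with its own axis from 0), by group, with a line at the mean of 3 libraries. For Tf the 3 hypoplastic libraries (72.4 to 99.5 CPM) lie above all treated libraries (29.5 to 60.4) and all control libraries (20.6 to 27.0). The groups of Tfrc, Slc11a2, Slc40a1, Cp, Fth1, Ireb2, Aco1 and Hmox1 overlap.

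Tf stood apart among the 10. In control libraries 1, 2 and 3 it was at 27.0, 20.6 and 23.7 CPM, in hypoplastic libraries at 99.5, 72.4 and 82.6 CPM, and in treated libraries at 60.4, 29.5 and 57.2 CPM. All hypoplastic lungs were above all treated lungs, and all treated lungs were above all control lungs, the last by a narrow margin in treated library 2. Group means were 23.7 CPM ± 3.17 (SD, n = 3) in control, 84.8 CPM ± 13.7 (SD, n = 3) in hypoplastic and 49.0 CPM ± 17.0 (SD, n = 3) in treated lungs. Hypoplastic lungs had 3.57 times the control level, a log2 difference of 1.84 (SE 0.255), which stayed between 1.71 and 1.94 when any of the libraries compared was left out.

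After vesicle treatment, Tf was lower than in untreated hypoplastic lungs, at -0.79 on the log2 scale (SE 0.247). Against control it remained higher by 1.04 (SE 0.250). These comparisons share the hypoplastic and the control libraries with the difference that was known beforehand, so they are described without a test. Treated library 2 set much of the treated spread: without it, the log2 fold change of Tf was -0.53 from hypoplastic and 1.31 from control lungs.

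Tfrc, which brings transferrin into the cell, shared the order of the libraries with Tf in control and hypoplastic lungs but not in treated lungs. It was at 304, 189 and 240.1 CPM in control, 371, 242 and 332 CPM in hypoplastic, and 199, 323 and 172 CPM in treated libraries. The 3 groups overlapped, and treated library 2, the lowest treated library for Tf, was the highest for Tfrc. The log2 fold change of Tfrc was 0.37 (SE 0.262, edgeR adjusted p 0.591) in hypoplastic against control, with an approximate 95% interval of -0.27 to 1.006, and -0.45 (SE 0.262, edgeR adjusted p 0.915) in treated against hypoplastic lungs.

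Slc11a2, the endosomal iron importer, lay within a narrow range in every lung but 1. It was at 28.5, 32.5 and 29.4 CPM in control, 29.9, 46.4 and 34.8 CPM in hypoplastic, and 32.8, 32.3 and 30.5 CPM in treated libraries. Hypoplastic library 2 was the high value: the log2 fold change against control was 0.30 (SE 0.154, edgeR adjusted p 0.460) with it and 0.10 without it. Treated against hypoplastic gave -0.22 (SE 0.153, edgeR adjusted p 0.939), or -0.02 without that library.

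Slc40a1, the iron exporter, varied more within groups than between them. Its levels were 37.3, 31.2 and 61.3 CPM in control, 32.1, 77.7 and 49.5 CPM in hypoplastic, and 39.6, 30.2 and 79.8 CPM in treated libraries. Each group held a low and a high library, and the coefficient of variation was 36.8 to 52.8% within groups. The log2 fold change was 0.29 (SE 0.417, edgeR adjusted p 0.804) in hypoplastic against control, and it was -0.09 without hypoplastic library 2 and 0.63 without control library 3.

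Cp, which encodes the copper-bearing ferroxidase that partners with ferroportin, was at 84.4, 61.9 and 125 CPM in control, 87.9, 118 and 119 CPM in hypoplastic, and 86.1, 90.9 and 92.9 CPM in treated libraries. The treated libraries lay close together, with a coefficient of variation of 3.88% against 35.4% in control. The groups overlapped, at 0.26 on the log2 scale (SE 0.224, edgeR adjusted p 0.667) in hypoplastic against control and -0.26 (SE 0.224, edgeR adjusted p 0.940) in treated against hypoplastic lungs. The first value was 0.04 without control library 2 and 0.56 without control library 3.

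Of the ferritin chains, Ftl1 had the larger differences from control and Fth1 overlapped throughout, and neither was called. Ftl1, the light chain that favours mineral formation in the ferritin core, was at 2400.2, 2030.3 and 2708 CPM in control, 2819.5, 3659.8 and 3428 CPM in hypoplastic, and 2757, 3405 and 2799 CPM in treated libraries. Every hypoplastic and every treated library was above every control library, although hypoplastic library 1 and treated libraries 1 and 3 were within a few percent of control library 3. The log2 fold change of Ftl1 was 0.47 (SE 0.182, edgeR adjusted p 0.366; DESeq2 adjusted p 0.108) in hypoplastic against control. It was 0.33 (SE 0.182, edgeR adjusted p 0.998) in treated against control and -0.14 (SE 0.182, edgeR adjusted p 0.955) in treated against hypoplastic lungs.

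Fth1, the heavy chain with the ferroxidase site, was at 2168, 2040 and 2234 CPM in control, 2270.2, 2561 and 2141 CPM in hypoplastic, and 1749, 2338 and 1804 CPM in treated libraries. The groups overlapped throughout. The log2 fold change was 0.11 (SE 0.159, edgeR adjusted p 0.800) in hypoplastic against control, with an interval of -0.28 to 0.50, and -0.24 (SE 0.159, edgeR adjusted p 0.924) in treated against hypoplastic lungs. RefSeq names 27 Ftl1-like and Fth1-like copies in the rat (20 of them pseudogenes), and 0 of them have counts here. No source used here says how reads that match several copies were counted, so both ferritin levels carry that uncertainty.

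The genes of the iron regulatory proteins differed little between groups. Ireb2 was at 92.5 to 105 CPM in control, 86.5 to 112 CPM in hypoplastic and 80.8 to 104 CPM in treated libraries, so the groups overlapped. Its log2 fold changes lay between -0.10 and -0.01 in the 3 comparisons, with edgeR adjusted p of 0.960 or higher. Aco1 was at 98.2, 86.3 and 86.8 CPM in control, 93.1, 70.9 and 74.7 CPM in hypoplastic, and 90.0, 84.3 and 87.6 CPM in treated libraries. Hypoplastic libraries 2 and 3 were below all other libraries for Aco1, but hypoplastic library 1 was among the highest. Its log2 fold change was -0.19 (SE 0.117, edgeR adjusted p 0.537) in hypoplastic against control, with an interval of -0.47 to 0.10. Both proteins act on mRNA, so these levels say nothing of their binding activity.

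Hmox1, the inducible enzyme that opens the haem ring and releases its iron, had the widest relative spread of the 10 genes in control and hypoplastic lungs, with coefficients of variation of 60.3 and 65.6%. It was at 98.4, 31.7 and 139 CPM in control, 81.7, 297 and 134 CPM in hypoplastic, and 91.9, 110.2 and 162 CPM in treated libraries. The lowest value was in control library 2 and the highest in hypoplastic library 2, and the remaining libraries overlapped between groups. The log2 fold change in hypoplastic against control was 0.93 (SE 0.551, edgeR adjusted p 0.510), with an interval of -0.42 to 2.28. It was 0.27 without hypoplastic library 2, 0.53 without control library 2 and 1.39 without control library 3. In treated against hypoplastic lungs it was -0.49 (SE 0.547, edgeR adjusted p 0.948) and turned to 0.17 without hypoplastic library 2.

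**Figure D2:**
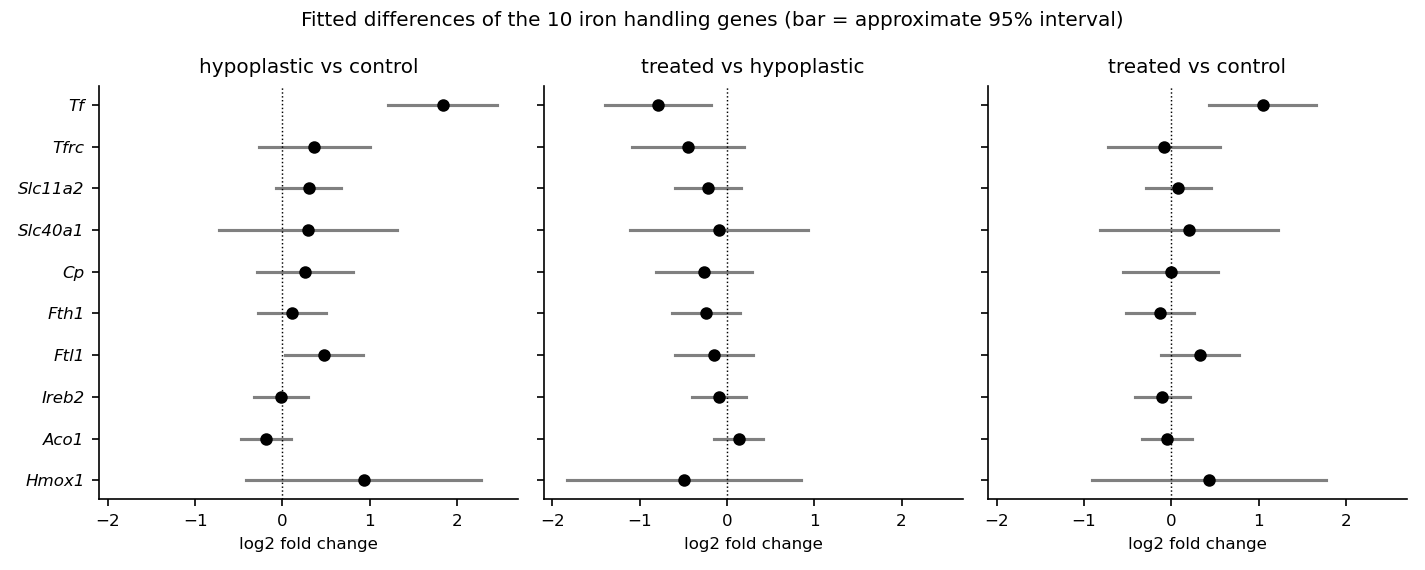
Log2 fold change of each iron handling gene in the 3 comparisons, with points at the estimate and bars at an approximate 95% interval (SE times the t value for 6 degrees of freedom, not adjusted for the number of genes). Tf lies farthest from 0 in hypoplastic against control (1.84), and the bars of Hmox1 and Slc40a1 are the widest and cross 0 in all 3 panels.

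Beside Tf, 7 of the 9 genes had a log2 fold change above 0 in hypoplastic against control, with a median of 0.295 beside 0.0129 for all genes. In treated against hypoplastic lungs 8 of the 9 were below 0, with a median of -0.216 beside -0.01. Both comparisons use the same hypoplastic libraries, so the signs are not independent. These medians moved with single libraries: without hypoplastic library 2 they were 0.103 and -0.0641, and 6 of the 9 genes were below 0 in treated against hypoplastic lungs. Without treated library 2 that count was also 6, and without control library 2 the median of hypoplastic against control was 0.105. In treated against control lungs 4 of the 9 genes were above 0, with a median of -0.00827 beside 0.00278.

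The genes whose profile was most like that of Tf were ranked by Pearson's r of log2 CPM over the 9 libraries, among 11339 named genes with a mean of at least 1 CPM, as a description. The 6 highest were Olfm4 (r 0.977), S100a8 (0.952), S100a9 (0.949), Mrpl47 (0.939), Cd177 (0.938) and Stfa3 (0.936). S100a8 and S100a9 encode the calprotectin subunits of neutrophils, Cd177 a neutrophil surface protein and Olfm4 a protein of neutrophil granules and of some epithelia, while Mrpl47 encodes a protein of mitochondrial ribosomes. Taken as deviations from group means, the r with Tf was 0.966 for Olfm4 and 0.774 to 0.830 for the other 5. Olfm4 was at 5.49, 3.89 and 4.11 CPM in control, 40.5, 23.9 and 29.9 CPM in hypoplastic, and 22.1, 9.42 and 27.4 CPM in treated libraries. Like Tf, it was lowest in library 2 of each group. S100a8 was at 4.49, 4.56 and 2.71 CPM in control, 39.0, 19.8 and 31.1 CPM in hypoplastic, and 20.1, 7.81 and 30.1 CPM in treated libraries.

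**Figure D3:**
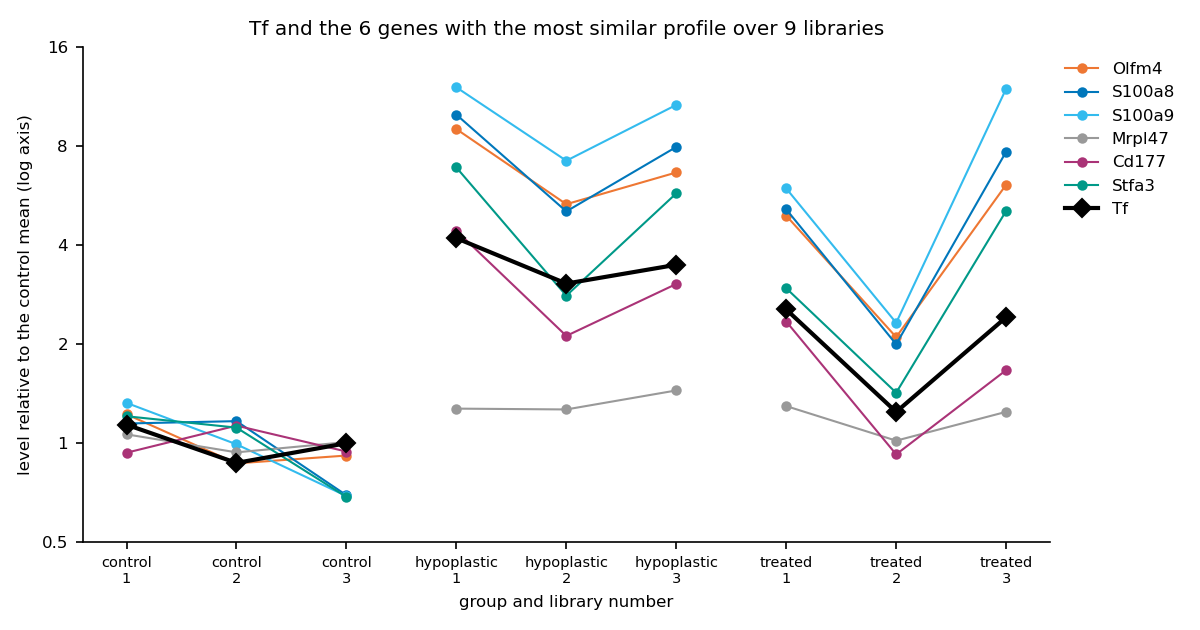
Level of Tf and of the 6 genes with the most similar profile in each library, relative to each gene's control mean (log axis), with lines joining the points of a gene within a group for the eye only. Tf, Olfm4, S100a8, S100a9, Cd177 and Stfa3 are lowest in library 2 of the treated group, and Mrpl47 moves over a narrower range (3.92 to 6.04 CPM).

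Markers of other cells were set beside Tf. The summed level of 8 neutrophil genes was 7.19 to 14.3 CPM in control, 57.7 to 99.5 CPM in hypoplastic and 19.6 to 84.2 CPM in treated libraries, and all 8 passed the filter. S100a8 and S100a9 made up most of that sum, and these are the genes already named for their likeness to Tf. Genes of the primary granules ran differently within the hypoplastic lungs: Mpo (1.11, 5.21 and 0.633 CPM), Elane (0.0915, 1.65 and 1.19 CPM) and Prtn3 (0.396, 1.40 and 0.290 CPM) were highest in library 2, where Tf, S100a8 and S100a9 were lowest. Elane was at 0 in control libraries 2 and 3. The rest of the sum, from Ngp, Camp and Mmp8 together, was like Tf lowest in library 2 among the hypoplastic lungs. Over the 9 libraries the r of the whole neutrophil sum with Tf was 0.95 on the log2 scale. The part of neutrophils in the level of Tf was not tested. The 12 hepatocyte genes summed to 1.30 to 14.2 CPM in control, 3.04 to 28.6 CPM in hypoplastic and 2.93 to 4.44 CPM in treated libraries, and 1 of them (Fgg) passed the filter. Fgg gave most of the highest sum, at 27.5 CPM in hypoplastic library 2, and Apob (6.60 CPM) and Apoa1 (5.65 CPM) gave most of that in control library 2, while the albumin gene Alb did not exceed 0.0357 CPM and Apoa2 and Fgb were at 0 in all libraries. The alveolar type II genes ran the other way between control and hypoplastic lungs, with sums of 3335 to 5998 CPM in control, 2393 to 2885 CPM in hypoplastic and 2953 to 4156 CPM in treated libraries. The 6 genes of glia and Schwann cells, which also make transferrin, summed to 21.5 to 28.1 CPM over all 9 libraries, most of it Mbp.

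Slc40a1 and Hmox1 were high in the libraries where macrophage genes were high. The summed level of 11 macrophage genes was 366, 252 and 458 CPM in control, 304, 682 and 440.1 CPM in hypoplastic, and 390 to 580 CPM in treated libraries (treated library 3 the highest). Marco was at or near 0 in all libraries, and 10 of the 11 passed the filter. Lyz2 (198 to 332 CPM) was the largest part of the sum in all 9 libraries, and in control library 2 it was at 216 of 252 CPM. Hypoplastic library 2 and treated library 3 had the highest macrophage sums, the highest Hmox1 and the highest Slc40a1, and control library 2 had the lowest sum and the lowest Hmox1. The r with the macrophage sum was 0.951 for Hmox1 and 0.900 for Slc40a1 over the 9 libraries, on the log2 scale, and the r with the sum of 6 fibroblast genes was 0.923 and 0.780. These 2 values were 0.748 and 0.807 for Cp and 0.683 and 0.684 for Ftl1. For the rest of the 10 genes the r with the macrophage sum lay between -0.572 (Aco1) and 0.543 (Slc11a2). The genes most like Hmox1 were Myo1f (r 0.992), Psap (0.988), Ninj1 (0.984) and Pld3 (0.983), and those most like Slc40a1 were Sipa1l2 (0.980), Nrros (0.978), Dyrk2 (0.978) and Nr1h3 (0.977). Of these, Psap encodes the precursor of the lysosomal saposins and Nr1h3 the liver X receptor alpha. The fibroblast sum was also highest in hypoplastic library 2, at 16387 CPM against 2561 to 7505 CPM elsewhere. Whether these cell types account for the spread of Hmox1 and Slc40a1 was not tested.

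**Figure D4:**
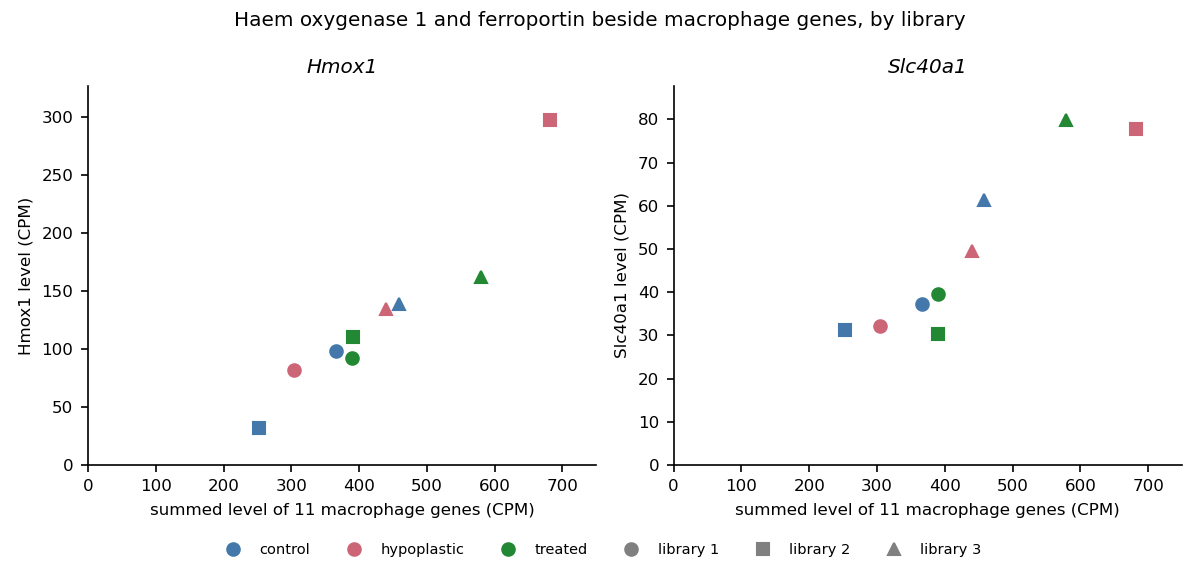
Level of Hmox1 (left) and Slc40a1 (right) against the summed level of 11 macrophage genes (CPM) in each of the 9 libraries, with colour for the group and shape for the library number. Hypoplastic library 2 lies at the upper right in both panels (682 CPM of macrophage genes, 297 CPM of Hmox1), and libraries of the 3 groups are mixed along the spread.

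The wider iron and haem pathway was followed through 57 further genes, of which 53 were found and 48 tested. edgeR called 0 of the 48 in each comparison. An unadjusted p under 0.05 was reached by 4 in hypoplastic against control (1 higher and 3 lower; 8.33%, against 12.4% of all genes). It was reached by 2 in treated against hypoplastic (both lower; 4.17%, against 5.56%) and by 3 in treated against control (1 higher and 2 lower; 6.25%, against 4.17%), and limma voom called 0. DESeq2 called 2 in hypoplastic against control, Lcn2 and Cybrd1 (4.17%, against 1.63% of all genes), and 0 in the others. The median log2 fold changes of the 48 genes were 0.0679, 0.0547 and 0.0475 in the 3 comparisons. The hepcidin gene Hamp, which encodes the liver hormone that closes ferroportin, did not pass the filter and was at most 0.800 CPM, and the genes Ltf, Ftmt, Tmprss6 and Hephl1 did not pass it either.

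Lcn2, which encodes lipocalin 2, a binder of iron-bearing siderophores, was at 13.8, 10.5 and 11.7 CPM in control, 33.1, 131 and 21.3 CPM in hypoplastic, and 20.2, 26.4 and 20.5 CPM in treated libraries. All hypoplastic and all treated libraries were above the control libraries, and hypoplastic library 2 was far above the rest. Its log2 fold change was 2.37 (SE 0.569, edgeR adjusted p 0.317; DESeq2 adjusted p 0.0376) in hypoplastic against control and -1.47 (SE 0.550, edgeR adjusted p 0.895) in treated against hypoplastic lungs. Neutrophils also make Lcn2. Its highest library, hypoplastic library 2, had the lowest neutrophil sum of the hypoplastic lungs (57.7 CPM, against 99.5 and 88.1 CPM). The same library had the highest Mpo, Elane and Prtn3 of the hypoplastic lungs. The part of any cell type in the level of Lcn2 was not tested.

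Cybrd1, a membrane ferric reductase, was at 179, 255 and 168 CPM in control, 139, 131 and 107 CPM in hypoplastic, and 179, 183 and 137 CPM in treated libraries. Hypoplastic libraries lay below all control libraries, at -0.67 on the log2 scale (SE 0.183, edgeR adjusted p 0.317; DESeq2 adjusted p 0.0497). Hfe, which modulates transferrin receptor and hepcidin signalling, was also below all control libraries, at -0.48 (SE 0.170, edgeR adjusted p 0.341). Alas2, the erythroid enzyme that starts haem synthesis, had -0.80 (SE 0.354, edgeR adjusted p 0.401), and its highest library, control library 2 at 1496 CPM, also had the highest sum of 15 red cell genes (13159 CPM, against 3868 to 8039.5 CPM in the others).

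In the treated lungs Slc39a8, a zinc and iron importer, was at 10.1, 8.73 and 9.38 CPM, below every control library (12.0, 22.2 and 15.7 CPM) and every hypoplastic library (12.0, 21.9 and 12.5 CPM). Its log2 fold change was -0.72 (SE 0.275, edgeR adjusted p 0.895) against hypoplastic and -0.82 (SE 0.275, edgeR adjusted p 0.998) against control lungs. Erfe, which encodes the erythroid suppressor of hepcidin, had a log2 fold change of 0.62 in treated against control lungs (SE 0.207, edgeR adjusted p 0.998), and Heph, a membrane ferroxidase, had -0.50 (SE 0.197, edgeR adjusted p 0.998). The 10 haem synthesis genes all had log2 fold changes above 0 in treated against hypoplastic lungs (0.03 to 0.30, median 0.21), none with an unadjusted p under 0.05. Over all genes 6236 of 12966 were above 0 there, with a median of -0.01. A shared sign was not particular to this list. The 5 haem breakdown and transport genes were all above 0 in hypoplastic against control and in treated against control. In treated against hypoplastic lungs 7 of the 10 uptake and reduction genes were below 0 and 3 above. Genes of a list were measured in the same libraries, so their signs are not independent.

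**Figure D5:**
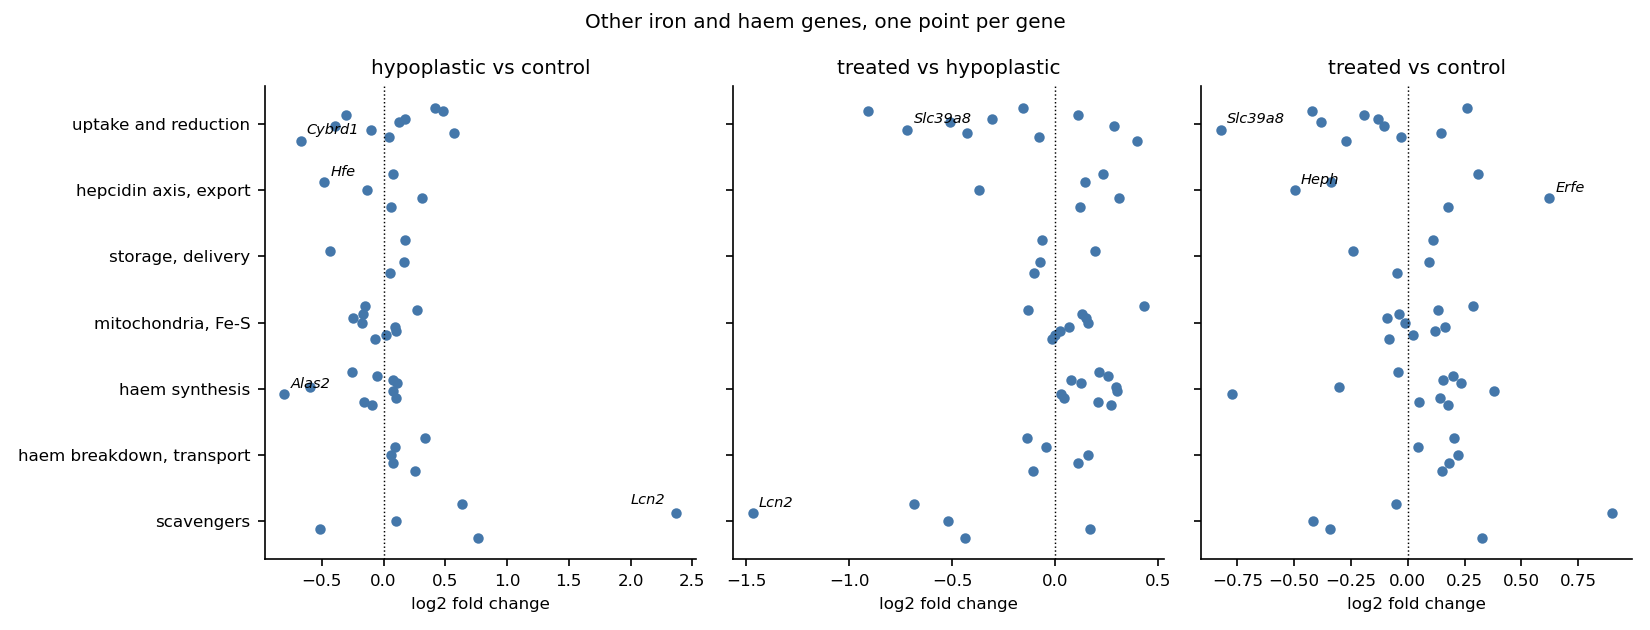
Log2 fold changes of the 48 further iron and haem genes tested, by role and comparison, with 1 point per gene and the names of genes with an unadjusted p under 0.05 (each panel has its own axis). Lcn2 lies farthest from 0 in hypoplastic against control (2.37) and in treated against hypoplastic (-1.47).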

How the data were processed

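RNA of 9 fetal rat lungs was sequenced after ribosomal depletion, and the authors deposited 1 table of estimated counts per NCBI Gene ID, without normalization between libraries. Of its nonzero values 19.5% were whole. The submitters' processing notes name DESeq2 and the build rn7 with no role, and the aligner, counter and annotation were not given in the sources used here. Counts were rounded, and symbols came from RefSeq (GRCr8, names only), which matched 17314 IDs (99.1%). edgeR 4.0.16 in R 4.3.3 (TMM, filterByExpr by group, glmQLFit with legacy=FALSE, glmQLFTest) was fitted to all 9 libraries with a term per group, leaving 6 residual degrees of freedom. The filter set aside 4499 genes. SE is the absolute log2 fold change over the square root of F. DESeq2 1.42.0 and limma 3.58.1 (voom) ran on the same genes. The code was tested on simulated data. The 10 genes, the other lists, the tests and the alternatives were chosen with earlier results of these data known. Named outside the 10 were, for each comparison, up to 6 further iron genes of smallest unadjusted p under 0.05, and the 6 genes most like Tf and 4 each most like Slc40a1 and Hmox1 (log2 CPM, prior count 2). Other genes of the lists are named for a marker level or a count. Groups came from the sample titles.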

Additional observations from a re-analysis of the deposited data

How the results depend on the processing

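Tf was left out of these counts, since its difference between hypoplastic and control lungs was known when the genes were chosen. The comparisons of treated lungs share libraries with that difference. Of the other 9 iron handling genes none was called under any alternative run in any of the 3 comparisons. Of the other iron genes 2 were called by DESeq2 in hypoplastic against control. Over all genes edgeR's 1 call in hypoplastic against control became 207 with DESeq2, 2 with the replicate block, 4 with only the libraries compared and 0 to 45 with 1 library left out (45 without hypoplastic library 3). The 0 calls in treated against hypoplastic became 17 with DESeq2 and 0 to 44 with 1 library left out (44 without hypoplastic library 3), and those in treated against control became 14 and 0 to 1 (1 without control library 2). The cause was not tested. RLE factors, no filter, a CPM filter and the removal of ribosomal and 7SL rows moved none of these counts. No label says that a replicate number pairs lungs: same-numbered libraries had correlated deviations of -0.282 to 0.227, above 0.1 in 3 of 9 pairs, and 5 of 18 best matches were to the same number.

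Of 420 values of the 10 genes under alternatives, 19 had the other sign, each with an adjusted p above 0.05. The log2 fold change of Cp in treated against control was 0.0507 with limma voom, 0.0306 with the replicate block and -0.219 to 0.299 with 1 library left out. With 1 library left out the ranges in treated against control were -0.0845 to 0.0260 for Aco1, -0.311 to 0.541 for Slc40a1 and -0.400 to 0.121 for Tfrc. In hypoplastic against control they were -0.121 to 0.0688 for Ireb2 and -0.0861 to 0.632 for Slc40a1. In treated against hypoplastic they were -0.828 to 0.169 for Hmox1, -0.178 to 0.0192 for Ireb2 and -0.605 to 0.289 for Slc40a1. Leaving out libraries was also tried for the count of genes above 0 and their median without Tf, chosen after the data were seen. With 3 lungs per group, the approximate 95% intervals of the 10 genes, Tf apart, cover 0 in every comparison except that of Ftl1 in hypoplastic against control (0.03 to 0.92).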

Other observations

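The ratio of Fth1 to Ftl1 counts within a library needs no scaling between libraries, and it was computed after the values were seen. It was 0.903, 1.005 and 0.825 in control, 0.805, 0.700 and 0.625 in hypoplastic, and 0.634, 0.687 and 0.644 in treated libraries. Every control library was above every other library, with means of 0.911 ± 0.0902 (SD, n = 3), 0.710 ± 0.0907 (SD, n = 3) and 0.655 ± 0.0279 (SD, n = 3). The exact two-sided permutation p was 0.1 for hypoplastic against control and for treated against control, the smallest that 3 against 3 libraries allow, and 0.5 for treated against hypoplastic (0.15, 0.15 and 0.5 after Benjamini-Hochberg adjustment over the 3 comparisons). With 3 against 3 libraries no p under 0.05 was possible, so this test cannot decide whether the chains changed unequally.

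The ratio of Tf to Tfrc counts was 0.0885 to 0.109 in control and 0.249 to 0.299 in hypoplastic libraries. Treated libraries 1 and 3 were at 0.304 and 0.332, and treated library 2, at 0.0912, lay within the control range. This ratio uses the values that chose Tf and is given without a test.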
